A study of Mus musculus with 4 samples.

Results

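The mRNAs for enzymes that bring pyruvate into mitochondria and turn the tricarboxylic acid (TCA) cycle were examined in mouse ovarian granulosa cells (GCs) exposed to HDACi 4b. These 33 genes were taken by symbol from the 25239 genes of the table, by their role in these pathways: the pyruvate carrier, the pyruvate dehydrogenase (PDH) complex with its kinases and phosphatases, pyruvate carboxylase, the cycle itself, and the enzymes through which aspartate, glutamate, malate and citrate enter or leave. GCs of wild-type C57BL/6 mice at postnatal day 24 were cultured either with HDACi 4b (2 libraries) or without it as control (con, 2 libraries). HDACi 4b is a synthetic inhibitor of the histone deacetylases HDAC1 and HDAC3, so the treatment is not an inhibition of HDAC3 alone. Dose, duration and whether con received the solvent were not in the labels, and neither was how many mice gave each library.

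Pyruvate made by glycolysis has several ways on. It can leave the cell as lactate, enter mitochondria through a carrier made of MPC1 and MPC2, be oxidised to acetyl-CoA by PDH, or be carboxylated to oxaloacetate by pyruvate carboxylase. PDH kinases switch the PDH complex off by phosphorylation and PDH phosphatases switch it on again. Acetyl-CoA joins oxaloacetate to form citrate, which is oxidised around the cycle or exported for lipid and sterol synthesis. Cumulus cells, the GCs around the oocyte, are known to pass it pyruvate, since the oocyte itself uses little glucose. The authors describe the cultured cells of these libraries as mural GCs, which they set apart from cumulus cells.

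The libraries held 15951875 to 17665107 reads, and 1 read on a gene of 2 kb was worth 0.028 to 0.031 FPKM (fragments per kilobase of exon, scaled to library size). The members had at least 101 reads in each library except Mpc1, with 43 to 62. Defining GC markers were present in all libraries, but their summed level was 745 and 905 FPKM in HDACi 4b against 2146 and 1964 FPKM in con. Of these 10 markers 6 were lower and 2 higher, where 38.1% of all genes tested were lower and 22.4% higher. Theca and stroma markers summed to 34.0 and 58.0 FPKM in HDACi 4b against 194 and 307 FPKM in con. Of these 8 markers 3 could be tested and all 3 were lower, where 38.1% of all genes tested were. Most of the sum was Acta2, with 23.5 and 41.5 FPKM in HDACi 4b against 162 and 245 FPKM in con. Among markers under the filter, Insl3 and Pdgfra were above con in both HDACi 4b libraries, Dcn was below and Tagln overlapped. The theca marker Cyp17a1 was under 0.1 FPKM in every library. Macrophage and leukocyte markers summed to 57.4 and 48.8 FPKM in HDACi 4b against 72.0 and 111 FPKM in con. Of 3 tested markers 2 (C1qa and Lyz2) were lower and 1 (Cd68) higher, at the same background of 38.1% and 22.4%. Most of the HDACi 4b sum was Cd68, with 37.6 and 27.1 FPKM in HDACi 4b against 6.73 and 10.8 FPKM in con. Ptprc, Adgre1 and Csf1r, under the filter, were below con in both HDACi 4b libraries, and Ptprc was under 0.1 FPKM throughout. Endothelial markers summed to at most 1.79 FPKM and oocyte markers to at most 5.58 FPKM in a library. The part of such cells in the differences below was not tested, and in RNA from bulk cells a lower number of cells of a type and less RNA per cell cannot be told apart.

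All 33 members had a mean of at least 1 FPKM and were tested. A gene was called where limma on log2(FPKM + 1) gave an adjusted p (Benjamini-Hochberg over all 12054 genes tested) under 0.05. By this rule 22 of 33 members (66.7%) were called, against 60.5% of all genes tested, so the share of members that changed was close to the background. Of the members 12 (36.4%) were higher in HDACi 4b, where the background was 22.4%, and 10 (30.3%) were lower, where it was 38.1%. Members called with a log2 difference of at least 1 in either direction numbered 5 (15.2%), against 14.2% of all genes. They were Pcx, Got1 and Mpc2, which were higher, and Pdk4 and Me2, which were lower. HDACi 4b and con libraries did not overlap for 31 members (93.9%), against 83.1% of all genes.

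The median log2 difference was 0.04 over the members and -0.15 over all genes tested. The 2 groups of libraries thus differed in their centre. Scaling the libraries by median ratios moved this centre by 0.13, after which 22 members were called (background 56.5%), 17 of them higher (background 28.4%) and 5 lower (background 28.2%). No called member turned its direction under this scaling. With limma-voom on recovered reads 21 members were called (background 60.6%), 12 higher (background 24.0%) and 9 lower (background 36.6%). Leaving out HDACi 4b replicate 1 or replicate 2 also left 5 members called lower, where 2796 and 3195 of the 12054 genes were called lower. Members called in all 9 alternative settings numbered 15, of which 10 were higher and 5 (Pdhb, Pdk2, Pdk4, Suclg2 and Glud1) were lower. The share of all genes that kept a call in all 9 settings was not computed, so this count has no background. The labels do not say whether libraries of 1 group are separate cultures. The spread behind each p-value is that between libraries, and it may be technical.

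**Figure D1:**
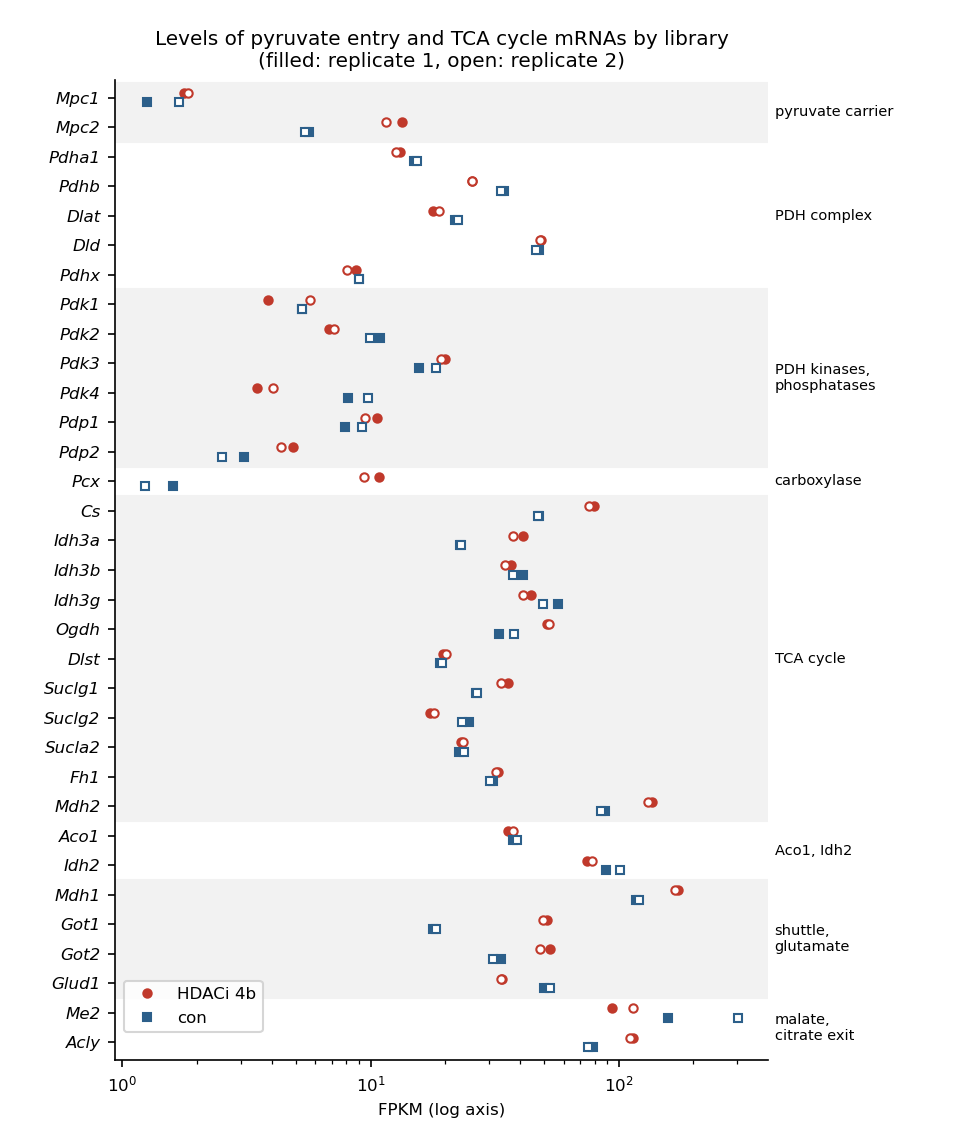
Level of each of the 33 mRNAs in each library, in FPKM on a log axis, with genes grouped by role. Circles are the 2 HDACi 4b libraries and squares the 2 con libraries (replicate 1 filled, replicate 2 open); Pcx stands at 10.8 and 9.41 FPKM in HDACi 4b against 1.60 and 1.23 FPKM in con, and the con libraries of Me2 lie far apart.

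**Figure D2:**
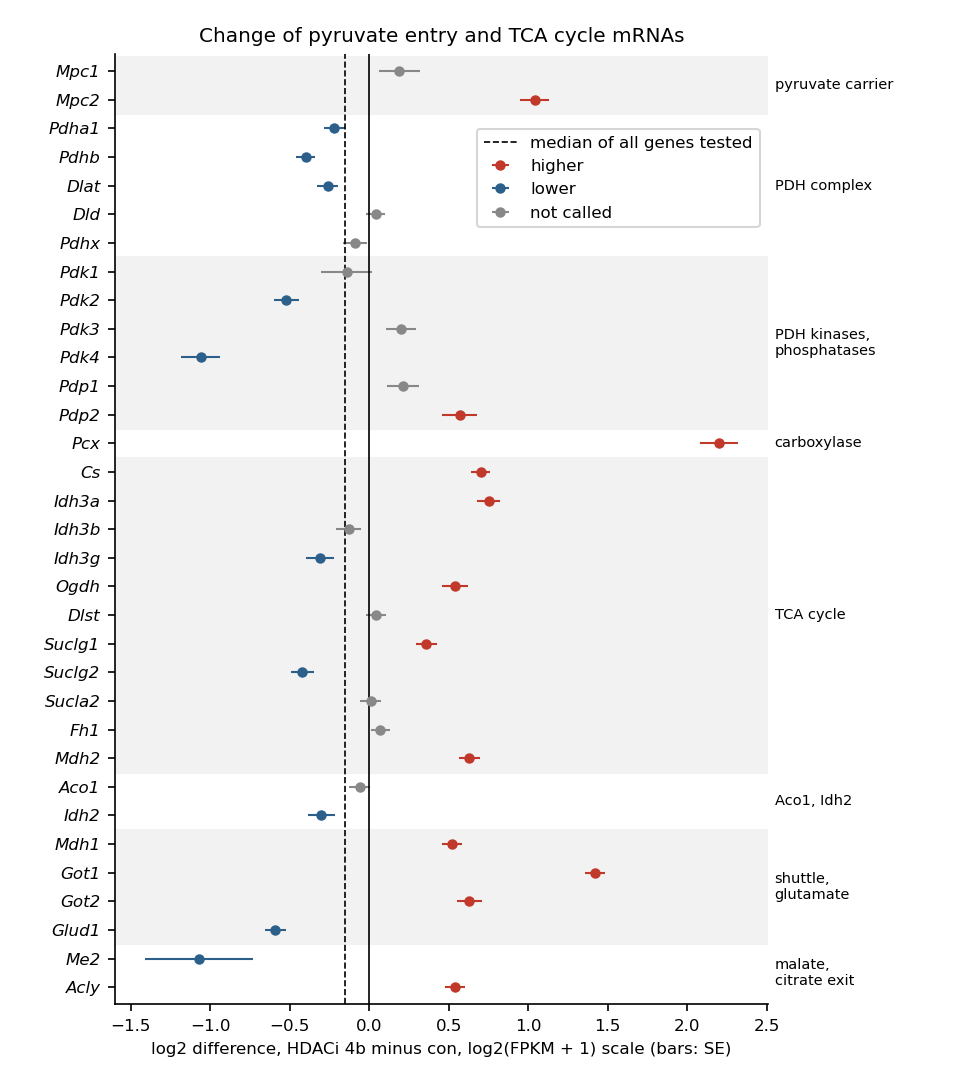
Log2 difference between HDACi 4b and con for each mRNA, on the log2(FPKM + 1) scale, with its SE as a bar. Red marks members called higher, blue members called lower and grey members that were not called; the solid line is 0 and the dashed line the median of all genes tested, -0.15.

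Promoter sequences are shown for Pcx and Got1, the members with the largest rises, and for Cs, the first enzyme of the cycle, which rose as well. RefSeq windows (GRCm38.p6) from 250 bases before to 50 bases after a start site existed for 30 members; Pdp1, Idh3a and Me2 had no entry. Shown are the 120 bases directly before the start site, 5′ to 3′ on the strand of the gene. Capitals mark any of 7 motifs searched on both strands: the GC box GGGCGG, the CCAAT box CCAAT, the E-box CACGTG, the hypoxia core ACGTG that lies inside that E-box, the FOXO core GTAAACA, the NRF1 core GCGCATGC and the ERR site TCAAGGTCA. Pcx, for pyruvate carboxylase, has 2 annotated start sites on the plus strand, chr19:4510352-4510471 upstream and chr19:4594199-4594318 downstream. Got1 lies on the minus strand (chr19:43524606-43524725) and Cs on the plus strand (chr10:128337607-128337726). None of these bases lies in an annotated exon.
Pcx, upstream start: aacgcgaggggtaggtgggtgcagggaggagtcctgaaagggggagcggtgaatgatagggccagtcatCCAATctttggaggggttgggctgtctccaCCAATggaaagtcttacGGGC
Pcx, downstream start: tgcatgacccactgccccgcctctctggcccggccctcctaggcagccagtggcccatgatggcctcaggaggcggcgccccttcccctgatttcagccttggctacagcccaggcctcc
Got1: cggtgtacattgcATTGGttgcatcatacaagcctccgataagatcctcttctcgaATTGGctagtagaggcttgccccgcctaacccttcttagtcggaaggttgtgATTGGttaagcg
Cs: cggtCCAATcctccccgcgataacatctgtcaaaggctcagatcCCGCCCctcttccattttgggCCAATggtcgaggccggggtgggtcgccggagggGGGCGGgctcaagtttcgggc

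In these stretches the upstream Pcx start had CCAAT at -51 and -21, counted from the start site, and a GC box that begins at -4 and runs across it. The downstream Pcx start had none of the 7 motifs before it. Got1 had CCAAT 3 times, read on the other strand as ATTGG, at -107, -64 and -12, and no GC box. Cs, for citrate synthase, had CCAAT at -116 and -55 and GC boxes at -76 and -21. Over whole windows, a GC box was present in 21 of 30 members and in 38.2% of the 27025 genes with a window, and CCAAT in 19 of 30 members and in 41.1% of genes. The hypoxia core was present in 9 of 30 members against 21.8% of genes, the E-box in 4 of 30 against 8.09%, and the NRF1 core in 2 of 30 (Glud1 and Ogdh) against 3.05%. No member window held the FOXO core (4.05% of genes) or the ERR site (0.466% of genes) in these letters. The 27025 genes with a window were not filtered by level, whereas all members passed the filter of 1 FPKM, so the 2 sets are unlike. A match is a stretch of letters and not a measured binding site.

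To examine whether the entry of pyruvate changed at the mRNA level, the carrier was considered first. Mpc2 rose 2.25-fold. Its level was 13.5 and 11.5 FPKM in HDACi 4b against 5.63 and 5.47 FPKM in con, a log2 difference of 1.04 ± 0.093 (SE, adjusted p = 0.000671), and the groups did not overlap. Mpc1, for the partner subunit, read 1.78 and 1.84 FPKM in HDACi 4b against 1.26 and 1.69 FPKM in con and was not called (0.19 ± 0.13, adjusted p = 0.248). The Mpc1 value is uncertain, because a processed copy, Mpc1-ps, shares 330 bases with it at 100% identity. Mpc1-ps, singled out after its values were seen, was listed at 112 and 98.8 FPKM in HDACi 4b against 61.2 and 65.7 FPKM in con and rose (0.72 ± 0.086, adjusted p = 0.00161). In recovered reads, Mpc1 had 60 and 61 in HDACi 4b against 43 and 62 in con, while Mpc1-ps had 598 and 520 against 332 and 383. Summed over both names, 658 and 581 reads in HDACi 4b stood against 375 and 445 reads in con. The rule by which reads were given to the 2 names is not stated in the sources used, so a level of Mpc1 apart from its copy could not be read from these libraries.

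Of the 5 PDH complex transcripts 3 were called lower and 2 were not called, where 38.1% of all genes tested were lower; under median-ratio scaling only Pdhb was lower (background 28.2%) and Dld was called higher. Pdhb, for the beta subunit of E1, was 25.6 and 25.5 FPKM in HDACi 4b against 34.4 and 33.6 FPKM in con (log2 difference -0.40 ± 0.061, adjusted p = 0.0035). Pdha1, for the alpha subunit that the kinases phosphorylate, was 13.1 and 12.7 FPKM in HDACi 4b against 15.0 and 15.4 FPKM in con (-0.22 ± 0.066, adjusted p = 0.0338). Dlat, for the E2 core, was 17.9 and 18.8 FPKM in HDACi 4b against 21.9 and 22.4 FPKM in con (-0.26 ± 0.066, adjusted p = 0.0202). All 3 genes were separated between the groups, but only the call of Pdhb held in all 9 alternatives. Pdha1 lost its call in 6 of them and Dlat in 4, median-ratio scaling among both; leaving out any of the 4 libraries ended the call of Pdha1 (log2 differences of -0.24 to -0.20), and leaving out HDACi 4b replicate 1, HDACi 4b replicate 2 or con replicate 2 ended that of Dlat (-0.29 to -0.22). Dld, for the E3 subunit that PDH shares with the 2-oxoglutarate dehydrogenase complex, and Pdhx, for the E3 binding protein, were not called (0.04 and -0.09). The 5 subunits summed to 114 and 113 FPKM in HDACi 4b against 128 and 127 FPKM in con.

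The PDH kinases, which hold the complex off, did not move as a block. Pdk4, the isoform known to rise in fasting, fell to 0.42 times its con level. It was 3.48 and 4.04 FPKM in HDACi 4b against 8.13 and 9.75 FPKM in con (log2 difference -1.06 ± 0.12, adjusted p = 0.00117). Pdk2, a widely expressed isoform, was 6.80 and 7.12 FPKM in HDACi 4b against 10.96 and 9.92 FPKM in con and also fell (-0.52 ± 0.081, adjusted p = 0.00369). Neither gene had overlapping groups, and both calls held in all 9 alternatives. Pdk1, known as a target of hypoxia signalling, was 3.86 and 5.69 FPKM in HDACi 4b against 5.29 and 5.28 FPKM in con. The 2 HDACi 4b libraries of Pdk1 lay on both sides of con, and the gene was not called (-0.14 ± 0.16, adjusted p = 0.489). Pdk3 had the highest FPKM of the kinases in all 4 libraries, with 20.0 and 19.3 FPKM in HDACi 4b against 15.6 and 18.3 FPKM in con. It was not called (0.20 ± 0.093, adjusted p = 0.108), and its difference depended on the con library, with 0.095 without con replicate 1 and 0.31, then called higher, without con replicate 2. Median-ratio scaling also called it higher (0.35).

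The makeup of the kinase pool differed between the groups. Pdk3 took 58.6% and 53.4% of summed Pdk FPKM in HDACi 4b against 39.0% and 42.3% in con. Pdk4 took 10.2% and 11.2% in HDACi 4b against 20.3% and 22.5% in con, and Pdk2 took 19.9% and 19.7% against 27.4% and 22.9%. The groups did not overlap for these 3 shares, whereas the share of Pdk1, 11.3% and 15.7% in HDACi 4b, spanned the 13.2% and 12.2% of con. Summed over the 4 kinases, HDACi 4b libraries had 34.2 and 36.1 FPKM and con libraries 40.0 and 43.3 FPKM. Shares, ratios and sums depend on the exon length taken for each gene, 2561 bases for Pdk3 and 7779 bases for Pdk1. They are given as values and were not tested.

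The phosphatases oppose the kinases, and only Pdp2 of the pair was called. Pdp2 was 4.88 and 4.36 FPKM in HDACi 4b against 3.09 and 2.52 FPKM in con, and rose 1.65-fold (log2 difference 0.57 ± 0.11, adjusted p = 0.00883). Without HDACi 4b replicate 1 its difference was 0.50 and the call was lost. Pdp1, the more abundant transcript, was 10.6 and 9.54 FPKM in HDACi 4b against 7.91 and 9.28 FPKM in con and was not called (0.21 ± 0.1, adjusted p = 0.129), except under median-ratio scaling (0.35). Summed Pdk over summed Pdp was 2.21 and 2.60 in HDACi 4b against 3.64 and 3.67 in con, so kinase transcripts were less in excess of phosphatase transcripts in both HDACi 4b libraries. These are mRNA levels, and neither the phosphorylation nor the activity of PDH was measured here.

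**Figure D3:**
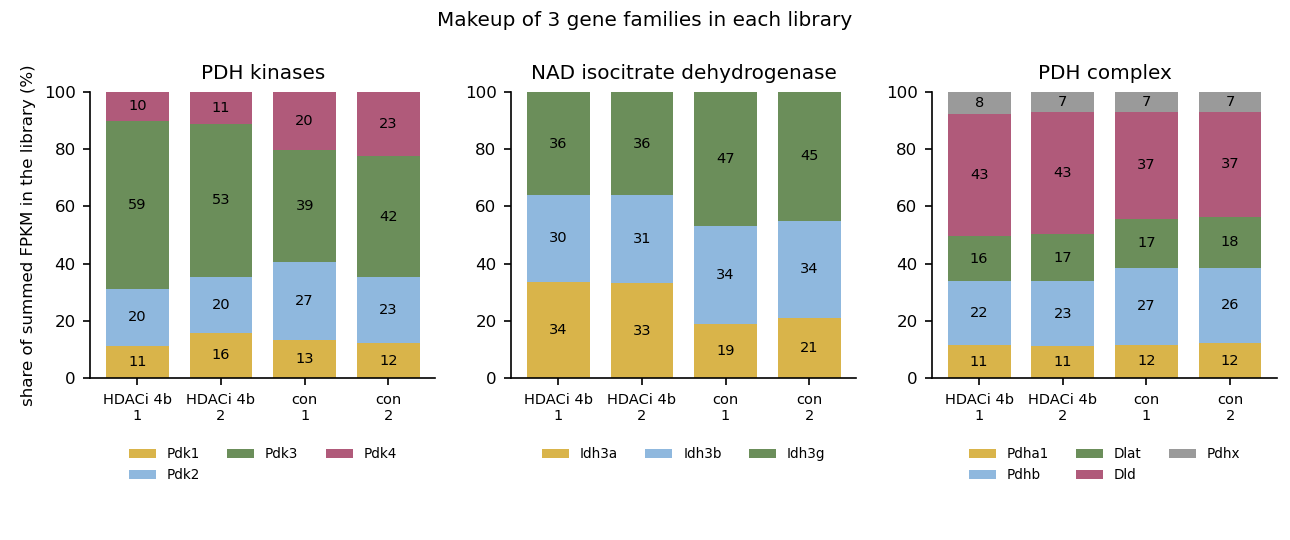
Share of each gene in the summed FPKM of its family, in percent, in each of the 4 libraries: the PDH kinases, the NAD-dependent isocitrate dehydrogenase and the PDH complex. The 2 HDACi 4b libraries stand left of the 2 con libraries; Pdk3 and Idh3a take more in both HDACi 4b libraries, and Pdk4 and Idh3g less, while the makeup of the PDH complex moves by a few percentage points.

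Pcx showed the largest difference of the 33 members. Pyruvate carboxylase makes oxaloacetate from pyruvate and so refills the cycle. Pcx was 10.8 and 9.41 FPKM in HDACi 4b against 1.60 and 1.23 FPKM in con, a 7.12-fold difference (log2 difference 2.20 ± 0.12, adjusted p = 0.000194). In recovered reads this was 810 and 696 in HDACi 4b against 122 and 101 in con, and the call held in all 9 alternatives with log2 differences of 2.09 to 2.84. In con it had the lowest mean of the 33 members. Within libraries, Pcx over Pdha1, which sets a gene of the carboxylation route against one of the oxidation route, was 0.823 and 0.741 in HDACi 4b against 0.107 and 0.0801 in con.

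In the cycle, 11 members were considered: citrate synthase, the 3 NAD-dependent isocitrate dehydrogenase subunits, 2 subunits of 2-oxoglutarate dehydrogenase, 3 of succinyl-CoA ligase, fumarase and mitochondrial malate dehydrogenase. Of these 5 rose, 2 fell and 4 were not called, where 22.4% of all genes tested were higher and 38.1% lower. Under median-ratio scaling 7 were higher and 1 was lower, against backgrounds of 28.4% and 28.2%. Their median log2 difference was 0.07, against -0.15 over all genes tested. The sum of the 11 was 518 and 501 FPKM in HDACi 4b against 414 and 404 FPKM in con.

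The steps that rose were spread around the cycle. Cs, for citrate synthase, was 79.3 and 76.2 FPKM in HDACi 4b against 47.6 and 47.4 FPKM in con (log2 difference 0.70 ± 0.062, adjusted p = 0.000655). Ogdh, for the E1 subunit of 2-oxoglutarate dehydrogenase, was 51.5 and 52.4 FPKM in HDACi 4b against 33.1 and 37.7 FPKM in con (0.54 ± 0.082, adjusted p = 0.00339). Mdh2, which regenerates oxaloacetate, was 136 and 131 FPKM in HDACi 4b against 87.9 and 84.7 FPKM in con (0.63 ± 0.064, adjusted p = 0.00101). In all 3 genes both HDACi 4b libraries lay above both con libraries. Dlst, for the E2 subunit of 2-oxoglutarate dehydrogenase, and Fh1, for fumarase, differed by 0.04 and 0.07 and were not called, although median-ratio scaling called both higher (0.19 and 0.22).

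Subunits of 1 enzyme moved apart in the NAD-dependent isocitrate dehydrogenase. Idh3a, for the catalytic alpha subunit, rose to 41.2 and 37.6 FPKM in HDACi 4b against 22.9 and 23.1 FPKM in con (log2 difference 0.75 ± 0.071, adjusted p = 0.000817). Idh3b was not called (-0.13 ± 0.076, adjusted p = 0.197). Idh3g, for the gamma subunit, was 44.2 and 41.2 FPKM in HDACi 4b against 56.7 and 49.7 FPKM in con and was called lower (-0.31 ± 0.088, adjusted p = 0.0282). The call of Idh3g was lost in 5 of 9 alternatives, among them median-ratio scaling (-0.16) and the settings without HDACi 4b replicate 1 (-0.36), HDACi 4b replicate 2 (-0.26) or con replicate 1 (-0.22). Idh3a took 33.7% and 33.1% of summed Idh3 FPKM in HDACi 4b against 19.0% and 20.98% in con, and Idh3g took 36.2% and 36.2% against 46.9% and 45.1%. The alpha subunit was the least abundant of the 3 in con, and the 3 transcripts stood between 30.1% and 36.2% each in HDACi 4b.

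Succinyl-CoA ligase joins an alpha subunit to either an ATP-forming or a GTP-forming beta subunit. Suclg1, for the common alpha subunit, was 35.7 and 33.5 FPKM in HDACi 4b against 26.5 and 26.8 FPKM in con (log2 difference 0.36 ± 0.066, adjusted p = 0.0063). Its call was lost without HDACi 4b replicate 1, where the difference was 0.32. Suclg2, for the GTP-forming beta subunit, fell to 17.4 and 18.1 FPKM in HDACi 4b against 24.9 and 23.3 FPKM in con (-0.42 ± 0.07, adjusted p = 0.00469). Sucla2, for the ATP-forming beta subunit, was 23.2 and 23.6 FPKM in HDACi 4b against 22.7 and 23.9 FPKM in con, with overlapping groups (0.01 ± 0.065, adjusted p = 0.93). Suclg2 over Sucla2 was 0.751 and 0.764 in HDACi 4b against 1.10 and 0.973 in con, so GTP-forming transcripts were below ATP-forming ones in both HDACi 4b libraries and on both sides of them in con. Suclg2 shares a match of 1302 bases at 99.1% identity with Gm15163, which was listed at a mean of 3.91 FPKM.

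Outside this ring, Aco1, a cytosolic aconitase that also acts as an iron sensor, was not called (log2 difference -0.06). Idh2, the mitochondrial isocitrate dehydrogenase that makes NADPH, was 74.7 and 78.2 FPKM in HDACi 4b against 88.7 and 101 FPKM in con (-0.30 ± 0.084, adjusted p = 0.0262). That call was lost in 5 of 9 alternatives, among them median-ratio scaling (-0.15) and the settings without HDACi 4b replicate 1 (-0.27), HDACi 4b replicate 2 (-0.34) or con replicate 2 (-0.21).

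The malate-aspartate shuttle, which carries reducing equivalents of cytosolic NADH into mitochondria, uses Mdh2 of the cycle together with Mdh1, Got1 and Got2, and all 4 were called higher, where 22.4% of all genes tested were (28.4% under median-ratio scaling, which kept the 4 calls). Got1, for the cytosolic aspartate aminotransferase, was 51.4 and 49.3 FPKM in HDACi 4b against 17.9 and 18.4 FPKM in con, a 2.77-fold difference (log2 difference 1.42 ± 0.063, adjusted p = 0.000134). Got2, for the mitochondrial form, was 52.9 and 48.2 FPKM in HDACi 4b against 33.6 and 31.2 FPKM in con (0.63 ± 0.078, adjusted p = 0.00185). Mdh1, for the cytosolic malate dehydrogenase, was 174 and 168 FPKM in HDACi 4b against 117 and 120.2 FPKM in con (0.52 ± 0.064, adjusted p = 0.00173). None of these groups overlapped and all 3 calls held in all 9 alternatives. Got1 over Got2 was 0.972 and 1.02 in HDACi 4b against 0.533 and 0.591 in con, so the cytosolic transcript stood close to the level of the mitochondrial one in HDACi 4b and well below it in con. Mdh1 over Mdh2 changed less, with 1.27 and 1.28 in HDACi 4b against 1.33 and 1.42 in con.

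**Figure D4:**
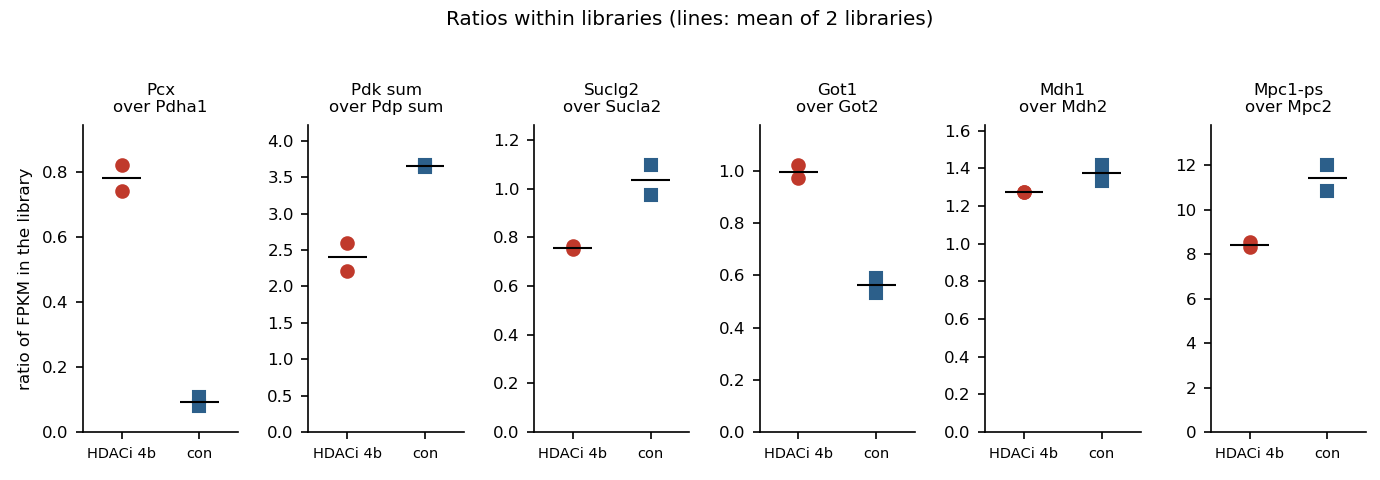
Ratio of FPKM values within each library, with 1 point per library, the mean as a line and each axis starting at 0. HDACi 4b stands left of con in each panel; Pcx over Pdha1 and Got1 over Got2 are higher in both HDACi 4b libraries, and the kinase to phosphatase ratio and Suclg2 over Sucla2 are lower.

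Among the members of the shuttle and of glutamate entry, only Glud1 was called lower. Glud1, for the glutamate dehydrogenase that feeds 2-oxoglutarate into the cycle, fell to 33.8 and 33.6 FPKM in HDACi 4b against 49.8 and 53.1 FPKM in con (log2 difference -0.59 ± 0.065, adjusted p = 0.00122), and the call held in all 9 alternatives. Me2, for the mitochondrial malic enzyme that turns malate into pyruvate, was 94.0 and 114 FPKM in HDACi 4b against 157 and 303 FPKM in con (-1.07 ± 0.34, adjusted p = 0.0491). Both HDACi 4b libraries of Me2 were below both con libraries, but the con libraries differed nearly as much from each other as from HDACi 4b. The call of Me2 was lost in 6 of 9 alternatives, among them median-ratio scaling and the settings without HDACi 4b replicate 1 (-0.93) or HDACi 4b replicate 2 (-1.21). Its log2 difference was -0.60 without con replicate 2 and -1.54 without con replicate 1.

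Acly, for the ATP citrate lyase that splits exported citrate into acetyl-CoA and oxaloacetate in the cytosol, rose to 115 and 111 FPKM in HDACi 4b against 78.6 and 75.1 FPKM in con (log2 difference 0.54 ± 0.065, adjusted p = 0.00159). The groups did not overlap and the call held in all 9 alternatives. Acly was the transcript with the third highest mean in HDACi 4b, after Mdh1 and Mdh2.

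Copies and overlapping genes touch a few of these values. Members with a match of at least 200 bases and 95% identity in another gene numbered 6 (Glud1, Got2, Mpc1, Pdha1, Pdhb and Suclg2), and apart from Mpc1-ps and Gm15163 the matching genes were at 0.701 FPKM or lower where listed. A gene on the opposite strand shared exon bases with 5 members (Got2, Idh3b, Mdh1, Mpc1 and Pdha1), from 0.146% of the exon length of Idh3b to 23.1% of that of Mpc1, and reads of the 2 strands cannot be told apart unless strand was used in counting.

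Neighbouring genes of the same pathways were read from lists, with a background of 60.5% called, 22.4% higher and 38.1% lower as above. Of 7 tested genes of succinate dehydrogenase, which links the cycle to the respiratory chain, 3 were higher and 1 was lower (3 and 0 under median-ratio scaling). Of 6 tested among 8 other cycle and malic enzymes 3 were higher and 1 was lower, among them Idh1, for the cytosolic NADP isocitrate dehydrogenase, with 1289 and 1303 FPKM in HDACi 4b against 472 and 332 FPKM in con (log2 difference 1.71 ± 0.18, adjusted p = 0.00172). Me1, for the cytosolic malic enzyme, was 1148 and 1142 FPKM in HDACi 4b against 473 and 612 FPKM in con (1.09 ± 0.13, adjusted p = 0.00203), which is the opposite direction to Me2. Pck2, which withdraws oxaloacetate as phosphoenolpyruvate, was 24.6 and 26.6 FPKM in HDACi 4b against 64.6 and 64.2 FPKM in con (-1.30 ± 0.068, adjusted p = 0.000182). All 3 genes were separated between groups.

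Among 6 mitochondrial carriers, of the shuttle, citrate, dicarboxylates or glutamate, 4 were higher and 2 were not called (5 higher under median-ratio scaling). Those called higher were Slc25a1, Slc25a10, Slc25a12 and Slc25a22, and of these only Slc25a12 is a carrier of the shuttle. Slc25a11, the 2-oxoglutarate carrier of the shuttle, was 46.0 and 45.4 FPKM in HDACi 4b against 36.8 and 42.9 FPKM in con. It was not called (log2 difference 0.20 ± 0.09, adjusted p = 0.109). Slc25a12, an aspartate-glutamate carrier that works beside Got1 and Got2, was 12.8 and 13.4 FPKM in HDACi 4b against 5.89 and 6.01 FPKM in con (log2 difference 1.02 ± 0.07, adjusted p = 0.000342). Slc25a13, the other aspartate-glutamate carrier, named after its values were seen, was 11.3 and 11.3 FPKM in HDACi 4b against 14.4 and 12.3 FPKM in con and was not called (-0.22 ± 0.091, adjusted p = 0.0878). Of 4 tested genes for the exit of pyruvate as lactate 3 were higher and 1 was not called (4 higher under median-ratio scaling). Ldha, which reduces pyruvate to lactate, was 347 and 443 FPKM in HDACi 4b against 117 and 116 FPKM in con (1.74 ± 0.13, adjusted p = 0.000482), and the lactate exporter Slc16a3 was 23.1 and 33.2 FPKM in HDACi 4b against 1.90 and 1.16 FPKM in con (3.52 ± 0.23, adjusted p = 0.000593).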

How the data were processed

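Total RNA libraries of cultured GCs (2 with HDACi 4b, 2 con) were prepared with a TruSeq RNA kit of Illumina. Groups and replicate numbers came from the sample titles; treatment and extraction notes in the labels speak of tamoxifen and frozen ovaries, but titles and series design were followed. Bowtie 0.12.2 and the build mm8 are named in the processing notes of the submitters; the sources used here do not give the counter, the annotation or the use of strand. The authors computed FPKM, and their deposited table names no unit. The unit was settled from the values: for 90.4% of 23893 genes matched to GENCODE M21, FPKM times union exon length and library total gave whole reads within 0.001 reads. This held for 30 of 33 members; lengths of Pcx and Glud1 were read off the steps, while the reads of Me2 are right only in their ratios. Library totals were 16215581 and 15951875 reads in HDACi 4b and 16438728 and 17665107 reads in con. Levels of different genes depend on these exon lengths, and intervals of reads were not computed.

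The 12054 genes averaging 1 FPKM or more entered a limma fit (version 3.58.1, R 4.3.3; trend, robust, two-sided, without covariates) on the log2(FPKM + 1) scale, with Benjamini-Hochberg adjustment over all of them and a threshold of 0.05. This scale understates the change of low genes, and folds are ratios of mean FPKM. Alternatives were a pseudocount of 0.1, no filter, a replicate block, median-ratio scaling, leaving out each library, and limma-voom on genes with 10 or more recovered reads in 2 libraries. Near-identical copies were searched with blastn 2.17.0. The members and lists were chosen with earlier results of these data known. Values per library are given by rule for members called with an absolute log2 difference of at least 0.5 and for the carrier, kinases and phosphatases, for other members where a ratio or lost call turns on them, and for listed neighbours called with at least 1, up to 3 a list. The ratio of Pcx to Pdha1 and the comparison with Mpc1-ps were added after seeing the data. So were the values named for Acta2, Cd68, Slc25a11, Slc25a13, Pdpr and Fasn.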

Additional observations from a re-analysis of the deposited data

How the results depend on the processing

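Of 33 members, 22 were called (12 higher, 10 lower). With a pseudocount of 0.1 or with limma-voom on recovered reads 21 were called, where 7241 of 12054 and 7841 of 12937 genes were called. Without the filter on low values 18 were called, of which 6 were lower. In that setting 7358 of 25239 genes were called, 4357 of them lower. Median-ratio scaling called 22 members, 17 higher and 5 lower, and over all genes 28.4% higher and 28.2% lower, against 22.4% and 38.1% without it. Leaving out 1 library gave 15 to 20 members called, 10 to 13 higher and 5 to 8 lower; over all genes it gave 4571 (without HDACi 4b replicate 1) to 6717 calls, against 7297. Of 11 members that were not called, some changed sign. Under median-ratio scaling Pdhx was 0.052, Aco1 0.094 and Idh3b 0.021. With 1 library left out, Pdk1 ran from -0.37 (without HDACi 4b replicate 2) to 0.089 (without HDACi 4b replicate 1). Sucla2 ran from -0.028 (without con replicate 1) to 0.043 (without con replicate 2), with -0.0049 without HDACi 4b replicate 2. The difference in the Pdk1 share ran from -1.42 percentage points (without HDACi 4b replicate 2) to 3.02 (without HDACi 4b replicate 1). The cause of these changes was not tested. Over all alternatives, 257 values of single members kept direction and side of the threshold, 28 lost and 6 gained a call, and 6 changed sign.

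With the replicate number as a block, 22 members were called (12 higher, 10 lower) and 7315 genes in all. Deviations of same-numbered libraries from their group means correlated at 0.0877 across genes, so the numbers were not treated as pairs. With 2 libraries a group the SE of a member rests on a spread shared across genes. The calls of small differences, such as those of Pdha1, Dlat, Idh2 and Idh3g, were lost on leaving out some libraries. The direction of these differences was kept. The 43 reads of Mpc1 in a con library were the lowest depth of a member.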

Other observations

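Further neighbours of these pathways were read as values, where of all genes tested 60.5% were called, 22.4% higher and 38.1% lower. Of 7 tested genes for glutamine and alanine use 3 were higher and 3 lower (3 and 2 under median-ratio scaling). Slc1a5, a glutamine importer, was 14.8 and 13.3 FPKM in HDACi 4b against 5.99 and 4.31 FPKM in con (log2 difference 1.30 ± 0.15, adjusted p = 0.0018 by limma), while Glud1 on the way from glutamine to the cycle was lower. Slc16a1, a carrier of lactate and pyruvate, was 19.6 and 18.3 FPKM in HDACi 4b against 8.80 and 7.92 FPKM in con (1.09 ± 0.081, adjusted p = 0.000416). Of 6 genes for lipoate attachment and for regulators of PDH or of the related branched-chain complex 1 (Ppm1k) was higher and 3 were lower. Those lower were Lipt1, Lipt2 and Pdpr. Median-ratio scaling also gave 1 higher and 3 lower, where 28.4% of all genes were higher and 28.2% lower. Pdpr, for the regulatory subunit of PDH phosphatase, was 1.13 and 1.78 FPKM in HDACi 4b against 3.07 and 2.98 FPKM in con (-0.73 ± 0.15, adjusted p = 0.0103). It is not part of the summed Pdp value.

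Of 5 genes that make or use acetyl-CoA 4 were higher and 1 was not called, against the 22.4% of all genes that were higher. The gene not called was Fasn, for fatty acid synthase, with overlapping groups (log2 difference 0.14 ± 0.13, adjusted p = 0.398). Acss2, which makes acetyl-CoA from acetate in the cytosol, was 8.99 and 8.36 FPKM in HDACi 4b against 2.74 and 1.94 FPKM in con (log2 difference 1.54 ± 0.14, adjusted p = 0.000667). Acss1, its mitochondrial relative, was 2.41 and 2.84 FPKM in HDACi 4b against 0.516 and 0.850 FPKM in con (1.11 ± 0.15, adjusted p = 0.00224). Its con mean was 0.683 FPKM, so Acss1 passed the filter of 1 FPKM only through its HDACi 4b values. Its call is therefore no independent support for a rise. Of 9 tested regulators known to act on these pathways 4 were higher and 2 lower (5 and 2 under median-ratio scaling). Foxo1, a transcription factor of the fasting response, was 10.8 and 11.7 FPKM in HDACi 4b against 48.8 and 39.2 FPKM in con (-1.87 ± 0.12, adjusted p = 0.000321). The groups did not overlap for Slc1a5, Slc16a1, Acss2, Acss1 or Foxo1, where 83.1% of all genes did not overlap.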
